A study of Mus musculus with 1248 samples.

Results

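The cells described here are 4T1 tumour cells taken from mouse bone 4 days after injection, set against cultured 4T1 cells. 4T1 is a mouse mammary carcinoma line, and here it carried firefly luciferase and the red reporter mCherry. The bone group came from hindlimbs of female BALB/c mice injected into the heart, and mCherry-positive cells were sorted singly. The culture group is the same labelled line grown in vitro, and the sources used here do not say how those cells were detached or sorted. Tumour cells were selected on measured values. A well needed at least 1000 detected genes, at least 50000 gene counts, at most 25% mitochondrial counts, and more Krt8 plus Krt18 than the sum of 10 blood cell genes. Of 513 wells of the bone group, 496 passed the first criteria and 137 of those were tumour cells (27.6%, exact 95% interval 23.7 to 31.8). All 54 cultured cells qualified, so 191 of the 1248 cells of the series are compared. No animal, plate or culture is named for any cell. Each group is therefore 1 sample, no difference was tested, and intervals cover counting error only.

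Bone is a frequent site of spread of mammary carcinoma, and cells that lodge there meet marrow cells, matrix and bone-resorbing osteoclasts. Immediate early genes encode short-lived transcription factors that stress, growth factors, attachment and also tissue dissociation switch on within minutes. Type I interferon signalling switches on antiviral genes through a promoter element called ISRE. Epithelial junction genes hold carcinoma cells together, and their loss together with a gain of vimentin is the textbook description of an epithelial-mesenchymal transition.

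Keratins 8 and 18 and the 10 blood cell genes chose the cells and are given only as a description. Krt8 plus Krt18 had a median of 3642 CPM (counts scaled to 1000000 gene counts per cell) in bone and 2937 CPM in culture. The well just inside the rule had 1.22 times as much keratin as blood cell RNA and the next 1.72 times. The wells just outside had ratios of 0.645 and 0.451, and the lowest ratio in culture was 44.3. Neither reporter was part of the rule. The sort used mCherry, whose median was 405 CPM in the chosen bone cells, 544 CPM in culture and 1905 CPM in the bone wells that were not chosen, so it did not mark the chosen cells. The other reporter entry, luciGFP, had a median of 64.0 CPM in the chosen bone cells, 39.4 CPM in culture and 0.616 CPM in the other bone wells. Total gene counts per cell were 351128 to 6956920 (median 3346557) in bone and 294795 to 5468263 (median 2981083) in culture. The median cell had 10865 detected genes in bone and 11295 in culture. ERCC spike-in RNA made up 0.172% and 0.0976% of the counts of the median cell.

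RNA of marrow cells was present in the chosen wells. The 10 blood cell genes together ranged from 24.4 to 1583 CPM (median 68.6) in the bone cells, so no cell was free of them. In culture 43 of 54 cells were at 0 and the highest was 26.0 CPM. Over 29 lineage markers of blood cells, the median tumour cell held 0.790% (0.345 to 1.09%) of the level in the other bone wells, as the plot of host markers shows. S100a9, a calcium-binding protein of neutrophils, stood at 15450 CPM in the other wells and at 145 CPM in the median tumour cell. The 15 neutrophil markers summed to 296 to 115010 CPM (median 778) in the bone cells and to 0 to 324 CPM (median 2.07) in culture, with 5 of the 15 at 0 there. The 13 B cell markers summed to 20.1 to 1364 CPM (median 44.2) and 0 to 44.3 CPM (median 0.370), with 8 at 0 in culture. The 15 monocyte and macrophage markers had medians of 160 and 10.6 CPM, and 10 erythroid markers 41.0 and 0 CPM. These blood lineages were thus present at low level in every bone cell and high in single wells. Of 12 osteoblast and marrow stroma markers 6 were under 1 CPM in the bone cells, Cxcl12, Sp7, Lepr and Pdgfrb among them, and 10 in culture. Runx2 of this list reached 20 CPM in 85 of 137 bone cells and 25 of 54 cultured cells. The 12 summed to 0.728 to 820 CPM (median 107) in bone and 0 to 142 CPM (median 31.2) in culture. Of 9 endothelial markers 7 were under 1 CPM, including Cdh5, Emcn and Kdr, and the sums had medians of 158 and 147 CPM. Of 8 osteoclast markers 5 were under 1 CPM, and the sums had medians of 540 and 56.3 CPM, where Mmp9 alone had 490.2 and 11.9. In 9 of the 137 cells the blood cell genes reached 300 CPM. What part of each result below comes from marrow RNA was not tested gene by gene, and the level in the other wells is given for called genes that were higher there.

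**Figure D1:**
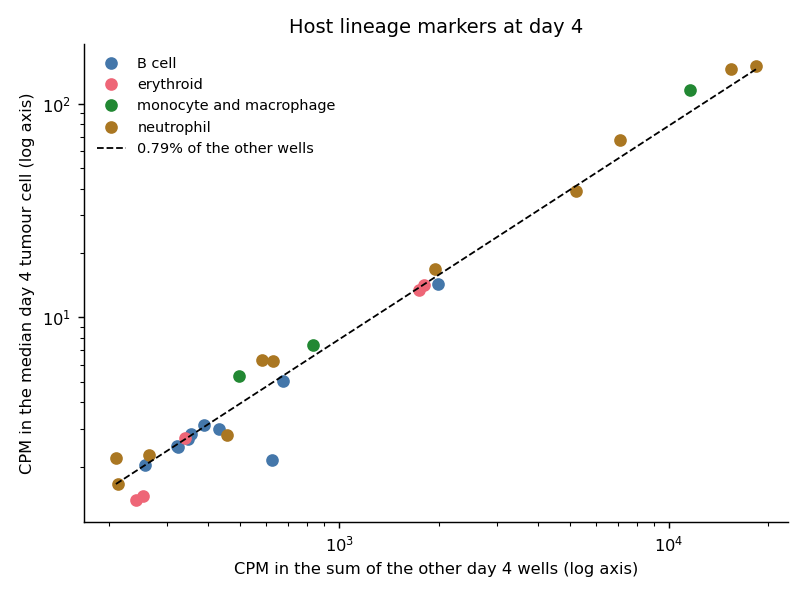
Levels of 29 lineage markers of blood cells at day 4, in the sum of wells not chosen as tumour cells (x, CPM, log axis) and in the median tumour cell (y, CPM, log axis). Points are genes, coloured by cell class, and lie near the dashed line at 0.790% of the other wells over a range of levels.

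Across the transcriptome, 7288 genes reached 20 CPM in the higher group and were found in 30% or more of its cells. Of these, 456 (6.26%) were at least 2-fold higher in bone and 182 (2.5%) at least 2-fold lower. The higher genes include blood cell markers, such as the neutrophil marker Camp with a sum of 174 CPM in bone and 0.0059 CPM in culture. Detection was judged with every cell thinned to 500000 counts, and a gene also had to pass 2-fold with cells weighted equally. Ratios are log2 of summed CPM plus 5, bone over culture. At least 4-fold higher were 120 genes and at least 4-fold lower 36. The interquartile range of the bone cells lay wholly above that of the cultured cells for 171 of the 456 genes, and wholly below for 104 of the 182. This was counted only among genes already called 2-fold apart, and not over all 7288 genes. Without the TMM factor, which aligns the bulk of genes, the counts were 359 and 246, so that 59.3% of called genes were higher in place of 71.5%. With median per-cell values the counts were 351 and 579 (37.7% higher). Subtracting the shared host level left 441 higher and 187 lower genes, and leaving out the 9 wells with most blood cell RNA left 446 and 179. The level subtracted is that of the median cell, 41.1 CPM for Camp. It does not remove host RNA that was high in single wells, so the host part of the 456 may be larger. Of the 456 higher genes, 121 had a higher level still in the other bone wells, and the share over all 7288 genes was not counted.

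Genes were followed in 41 lists. Among all 10239 genes with at least 5 CPM in either group, 652 (6.37%) were 2-fold higher by their sums and 274 (2.68%) 2-fold lower, with a median ratio of 0.05. Counts and medians of the lists below stand against this background. Immediate early transcription factors lay furthest above that background, with a median ratio of 2.66, followed among lists of at least 6 counted members by TGF-beta and BMP targets at 1.48 and ERK feedback genes at 0.98. Furthest below were keratins other than the chosen pair at -1.06, type I interferon genes at -1.05 and epithelial junction genes at -0.91. The plot of list members shows that the spread within most lists was wider than the distance of their medians from 0.

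**Figure D2:**
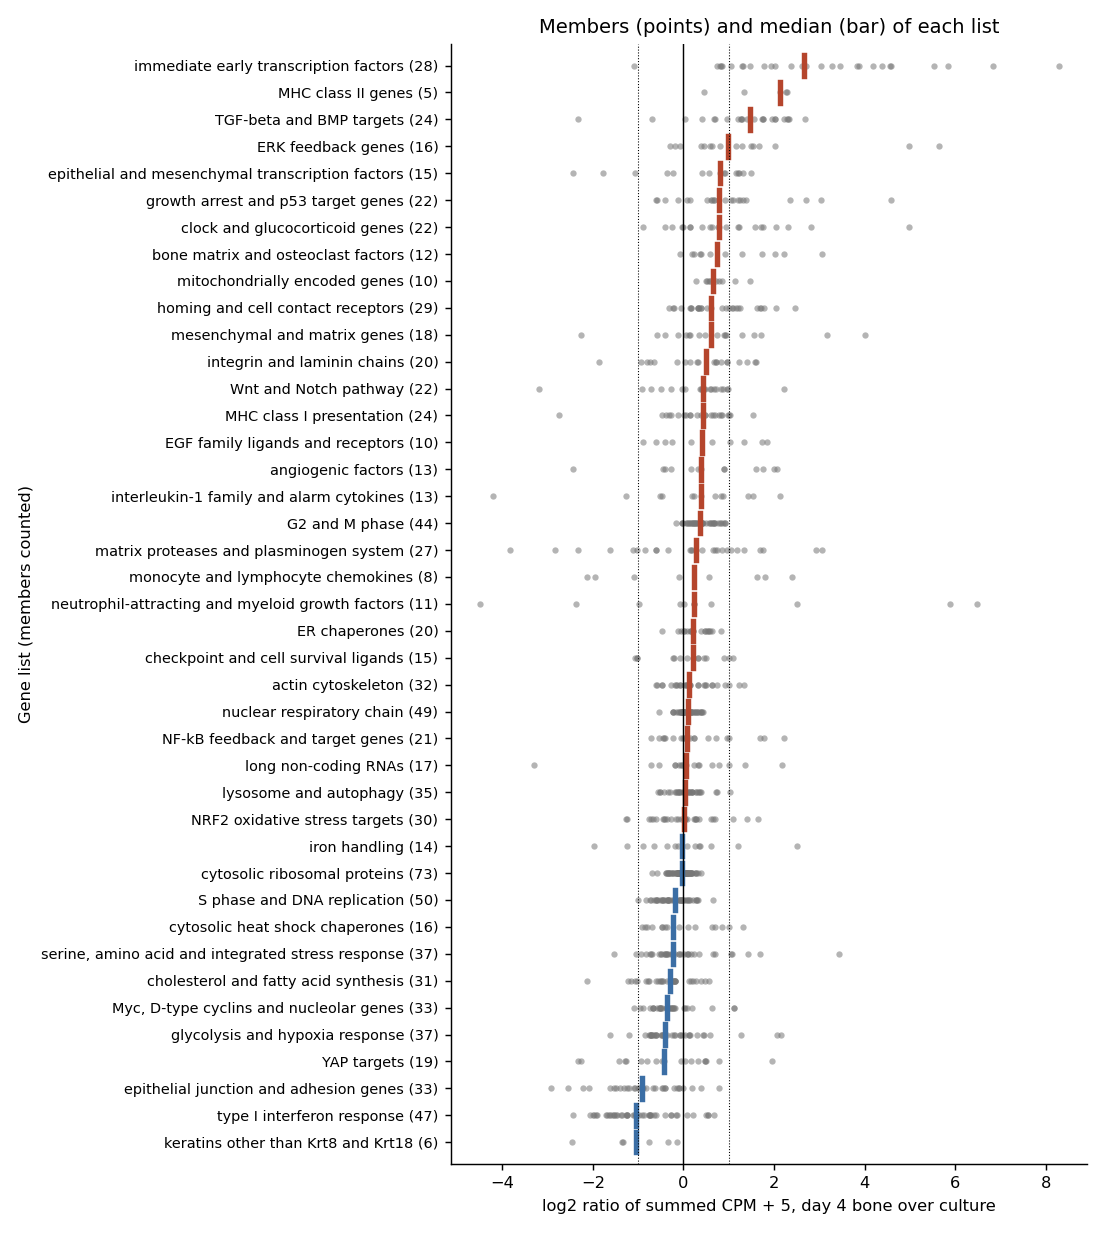
Log2 ratio of summed CPM plus 5, day 4 bone over culture (x), for the members of each gene list with at least 5 CPM in either group (points) and the list's median (bar). Lists are ordered by median, dotted lines mark 2-fold, and the immediate early list is at the top while interferon, junction and keratin lists are at the bottom.

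Of 28 counted immediate early transcription factors, 23 were 2-fold higher in bone and 1 lower. Fos, which pairs with Jun proteins to form AP-1 (chromosome 12, 85473890 to 85477273, build mm10), ranged from 18.1 to 52937 CPM over bone cells with a median of 5885. In culture it ranged from 0 to 141 CPM with a median of 0.236. All but 1 of the bone cells lay above every cultured cell, and the log2 ratio of sums was 8.28. Nr4a1, an orphan nuclear receptor (chromosome 15, 101254269 to 101274795), had a median of 1297 CPM in bone (9.77 to 7839) and 0.631 CPM in culture (0 to 84.9). For it 132 bone cells stood above every cultured cell. Its relative Nr4a2 stood at medians of 333 and 0 CPM, with 129 bone cells above all cultured ones. Fosb, a close relative of Fos, had medians of 534 and 0.363 CPM and a ratio of 5.54. These genes were thus higher in nearly all bone cells and not in a subset.

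Atf3 and Egr1 separated the groups less cleanly. Atf3, a stress-induced partner of AP-1, ranged up to 751 CPM in culture, so only 71 bone cells exceeded every cultured cell, although the medians were 779 and 1.42 CPM. Egr1, a zinc finger factor, reached 827 CPM in 1 cultured cell and had medians of 554 and 8.24 CPM. Btg2, which restrains the cell cycle, was spread more widely in bone, from 0.849 to 2394 CPM with a median of 82.0, against 0 CPM in culture. Myc, the growth regulator, was the only list member 2-fold lower: its median was 222 CPM in bone (0.987 to 1541) and 556 CPM in culture (23.0 to 1970.3). Summed over the 29 list genes, cells ranged from 1680.2 to 121725 CPM in bone and 809 to 9513 CPM in culture, and 127 of 137 bone cells exceeded every cultured cell. A median bone cell had 23 of these genes at 20 CPM or more and a median cultured cell 12.

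**Figure D3:**
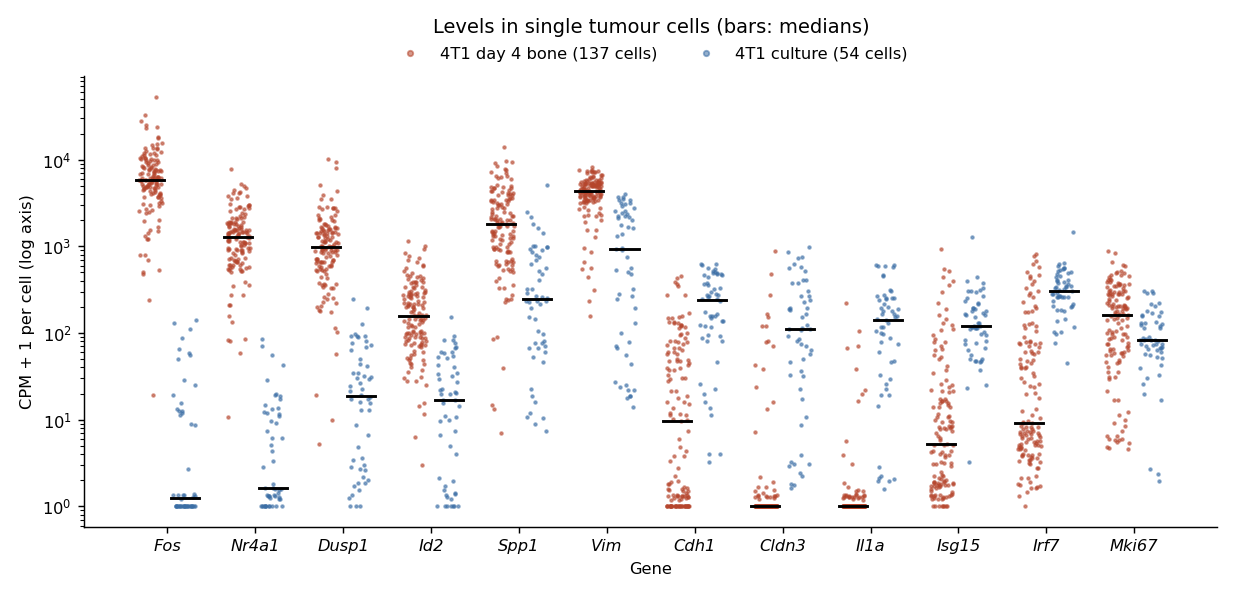
Levels of 12 genes in single tumour cells (y, CPM plus 1 on a log axis), with 137 cells of day 4 bone in red, 54 cultured cells in blue and black bars at the medians. Fos, Nr4a1 and Dusp1 separate nearly all cells, whereas Cdh1, Isg15 and Irf7 spread over the whole range in bone.

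Early gene RNA was not confined to tumour cells of the sort. The sum of the other bone wells held 738 CPM of Fos, 1257 CPM of Nr4a1, 531 CPM of Btg2 and 248 CPM of Dusp1. At the shared host level of 0.790%, this would add 9.93 CPM of Nr4a1 and 5.83 CPM of Fos to a tumour cell. Growth in an animal, growth in bone and recovery from bone cannot be told apart in this comparison. Across the 137 bone cells the immediate early sum had a Spearman rho of 0.58 with ERK feedback genes, 0.27 with the ERCC share, 0.11 with blood cell RNA and 0.04 with total counts. These are descriptions over cells of 1 sample, in which sums of different lists share each cell's total.

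The promoters of the leading early genes are shown because TGACG, the core of the cyclic AMP response element, lies in each of them more than once. The 250 bases before the annotated start were read from RefSeq (GRCm38.p6), with TGACG on either strand in capitals. They stand at chr12:85473640-85473889 (plus strand) for Fos, chr15:101266596-101266845 (plus) for Nr4a1 and chr2:57124004-57124253 (minus) for Nr4a2. The RefSeq start used for Nr4a1 lies inside the GENCODE span of the gene given above, so the annotations differ in where that gene begins.
Fos: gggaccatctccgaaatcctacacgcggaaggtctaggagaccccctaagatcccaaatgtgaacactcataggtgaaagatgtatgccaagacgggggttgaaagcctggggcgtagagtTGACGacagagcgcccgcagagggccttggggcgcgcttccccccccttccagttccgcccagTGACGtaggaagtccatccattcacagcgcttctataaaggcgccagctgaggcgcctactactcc
Nr4a1: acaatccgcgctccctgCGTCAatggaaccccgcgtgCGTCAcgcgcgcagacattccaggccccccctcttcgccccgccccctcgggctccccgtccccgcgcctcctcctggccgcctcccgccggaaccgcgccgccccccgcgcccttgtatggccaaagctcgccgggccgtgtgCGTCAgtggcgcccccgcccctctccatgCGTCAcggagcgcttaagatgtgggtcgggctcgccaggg
Nr4a2: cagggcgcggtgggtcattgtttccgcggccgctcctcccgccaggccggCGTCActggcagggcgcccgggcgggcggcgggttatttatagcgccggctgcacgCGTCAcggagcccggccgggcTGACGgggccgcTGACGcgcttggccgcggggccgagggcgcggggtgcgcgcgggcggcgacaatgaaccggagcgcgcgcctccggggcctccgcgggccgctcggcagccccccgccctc
The Fos window held 2 matches and those of Nr4a1 and Nr4a2 4 each. Of the 21 early genes called higher, 17 had a sequence and 11 of these (64.7%) held TGACG, against 19.8% of all 27025 genes with a sequence. Among the 7975 sequenced genes with at least 5 CPM the share was 32.5%. Over the whole early list, called or not, 22 of 29 genes had a sequence and 15 (68.2%) held TGACG. Of all 456 genes higher in bone, 343 had a sequence and 28.3% of these held it. A sequence was found for under 80% of the whole early list, of the 456 higher genes and of genes with at least 5 CPM. Comparing a share required 80%, so no conclusion is drawn from the shares of these sets for any pattern. Whether TGACG goes with membership of the list or with being higher in bone was not tested. The full palindrome TGACGTCA, which contains TGACG, was in 1 of the 17 and in 1.77% of all. The AP-1 pattern TGANTCA was in 1 of the 17 (5.88%) and in 7.82% of all. A wide form of the serum response element (CArG) was in 3 of the 17 (17.6%), against 4.44% of all and 5.24% of the genes with at least 5 CPM. GAAANNGAA was also in 3 of the 17, against 8.18% and 7.41%, and a wide NF-kB pattern in 14 (82.4%), against 48.7% and 68.2%. All were searched on both strands. A match describes letters in this window and is not a binding site.

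Genes that damp the ERK and NF-kB pathways were partly higher. Of 16 ERK feedback genes 8 were 2-fold higher and 0 lower. Dusp1 and Dusp2, phosphatases that switch off MAP kinases, had medians of 969 and 360.3 CPM in bone and 17.8 and 0.242 CPM in culture. Dusp5, which acts on ERK in the nucleus, stood at 148 against 54.8 CPM with 32 bone cells above every cultured one. Spry2, an inhibitor of receptor signalling to ERK, stood at 138 against 27.5 CPM with 73 such cells. Dusp4 did not reach 2-fold, with sums of 46.5 and 58.3 CPM and medians of 34.9 and 27.2 CPM. Of 21 NF-kB genes 3 were 2-fold higher, none was lower, and the list's median of 0.07 lay at the background. The 3 were Nfkbia, the inhibitor that NF-kB induces (medians 585 and 84.8 CPM), Nfkbiz (84.4 and 30.8) and the subunit gene Nfkb1 (63.5 and 20.8). The other wells held 887 CPM of Nfkbia and 126 CPM of Nfkb1.

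Growth arrest and stress genes were also among the higher ones. Of 22 counted arrest and p53 target genes 10 were 2-fold higher and none lower, and Btg2 is counted both here and among the immediate early genes. Cdkn1a, which encodes the p21 inhibitor of cyclin-dependent kinases, had a median of 134 CPM in bone (1.34 to 785) and 20.7 CPM in culture (0 to 149). The other wells held 424 CPM of Cdkn1a, more than the 163 CPM of the tumour cell sum. Gadd45g, a growth arrest gene, stood at 262 against 9.56 CPM, and Gadd45b did not follow, with sums of 46.5 and 73.0 CPM. Ppp1r15a, which restarts translation after stress, had medians of 167 and 7.04 CPM. Rgs2, which limits G protein signalling, was at 22.7 and 0 CPM, and the other wells held 326 CPM of it. Of 22 clock and glucocorticoid genes 9 were 2-fold higher and none lower, and Dusp1 is counted both here and among the ERK feedback genes. Sgk1, a kinase that glucocorticoids induce, stood at 801 against 93.5 CPM, with 89 bone cells above every cultured one. Tsc22d3, the glucocorticoid-induced leucine zipper gene, stood at 59.1 and 2.89 CPM, and the other wells held 181 CPM of it. Per2, a clock repressor, had medians of 8.12 and 0 CPM, and Nr1d1, another clock gene, had lower sums of 26.4 and 52.9 CPM. Tcim, a small regulator of Wnt signalling that belonged to no list, was at 455 CPM (1.37 to 2124) against 9.84 CPM (0 to 179.6), and 124 bone cells exceeded every cultured cell.

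TGF-beta and BMP targets were higher as a group. Of 24 counted members 17 were 2-fold higher and 1 lower. Id1 and Id2, inhibitors of differentiation that BMP signals induce, had medians of 465 and 156 CPM in bone and 94.2 and 15.8 CPM in culture. Id1 ranged from 34.9 to 6611 CPM in bone and 1.12 to 518 CPM in culture, and 62 bone cells lay above all cultured ones. Ltbp2, a matrix protein of the latent TGF-beta binding family, separated the groups further, with 100 bone cells above every cultured cell and medians of 192 and 31.9 CPM. Tsc22d1, a TGF-beta-induced leucine zipper gene, stood at 162 and 32.1 CPM with 80 such cells. The 1 lower member was Ctgf, with a ratio of -2.33, which is also a YAP target and is described below. Inhba, an activin chain, ran the same way as Ctgf without reaching 2-fold, with sums of 68.5 and 114 CPM. The immediate early and TGF-beta sums had a rho of 0.53 across bone cells and 0.00 across the 54 cultured cells, and both lists hold Klf10.

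Matricellular genes that YAP induces split. Cyr61, also called Ccn1, was higher with a median of 1625 CPM (5.44 to 12876) against 344 CPM (4.54 to 2782). Its close relative Ctgf, or Ccn2, was lower: 30 of 137 bone cells and 43 of 54 cultured cells had 20 CPM or more, and the medians were 0.284 and 125 CPM. In bone the 14 highest cells held 80.3% of all Ctgf. Thbs1, a matrix glycoprotein, had medians of 36.2 and 452 CPM, and Ankrd1, a nuclear and muscle ankyrin repeat protein, 22.0 and 142 CPM. Of 19 counted YAP targets 1 was 2-fold higher and 5 were lower.

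Epithelial junction genes were lower in bone, and unevenly so between cells. Of 33 counted genes 13 were 2-fold lower and none higher. Cdh1, which encodes E-cadherin (chromosome 8, 106603351 to 106670246), ranged from 0 to 459 CPM with a median of 8.71 in bone, and from 2.23 to 629 CPM with a median of 239 in culture. It reached 20 CPM in 56 of 137 bone cells and 47 of 54 cultured cells. The tight junction gene Cldn3 reached 20 CPM in 13 bone cells and 41 cultured cells, and the 14 highest bone cells held 99.0% of its level. Cldn4, another claudin, reached it in 11 and 28 cells. Gja1, the gap junction connexin, ran the other way without reaching 2-fold, with medians of 282 and 185 CPM. A median bone cell had 13 of the 36 list genes at 20 CPM or more (2 to 27) and a median cultured cell 20 (11 to 29). In 36 of 137 bone cells the number was lower than in any cultured cell. Across bone cells the epithelial sum had a rho of -0.31 with blood cell RNA, and without the 19 wells with 100 CPM or more of that RNA the list's median was -0.80, against -0.91 with them.

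Vim, the intermediate filament gene of mesenchymal cells (chromosome 2, 13573927 to 13582826), was high in nearly all bone cells but in only part of the cultured ones. Its median was 4383 CPM in bone (157 to 8236) and 921 CPM in culture (13.1 to 4023), where the quartiles lay at 83.3 and 2429 CPM. At least 1000 CPM were found in 128 of 137 bone cells and 25 of 54 cultured cells, and under 100 CPM in 0 and 15. Between 500 and 2000 CPM, near that limit, lay 9 bone cells and 12 cultured cells. In culture Vim and the epithelial sum had a rho of -0.82 over 54 cells, and in bone -0.10 over 137. Cells with 20 CPM or more of Cdh1 together with 1000 CPM or more of Vim numbered 50 of 137 in bone and 18 of 54 in culture. Vim at that level with less Cdh1 was found in 78 bone cells and 7 cultured cells, and Cdh1 with less Vim in 6 and 29. The limits were chosen after the values were seen. In 83 bone cells Vim exceeded every cultured cell, and the plot of Vim against junction genes shows bone cells at and beyond the Vim-high end of the cultured cells.

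**Figure D4:**
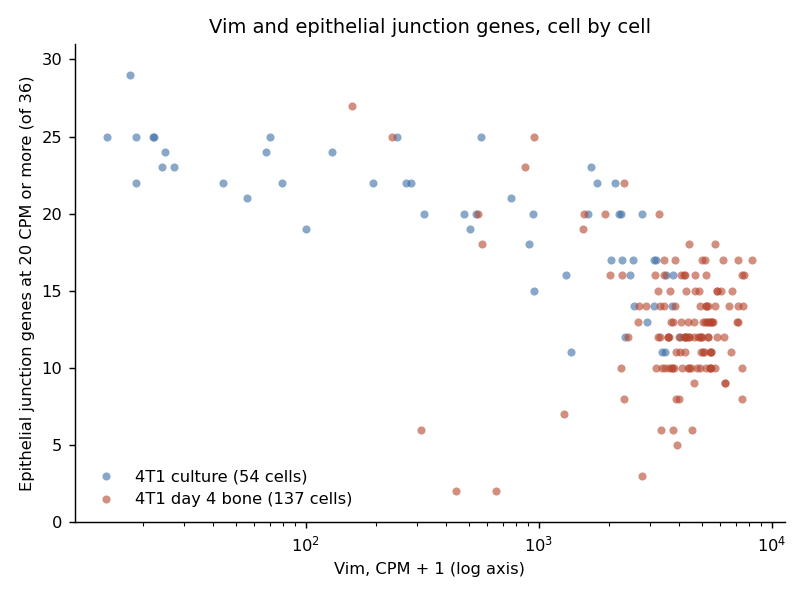
Each tumour cell by its Vim level (x, CPM plus 1, log axis) and its number of epithelial junction genes at 20 CPM or more (y, of 36 genes). Cultured cells (blue, 54) run from low Vim with many junction genes to high Vim with fewer, and bone cells (red, 137) gather at high Vim with a median of 13 genes.

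Keratins beyond the pair used for selection varied in the same way. Krt7, a keratin of simple epithelia, had medians of 48.8 and 644 CPM and reached 20 CPM in 81 of 137 bone and 49 of 54 cultured cells. Krt19 had medians of 24.6 and 181 CPM and Krt80, a keratin of stratified epithelia, 0 and 32.4 CPM. Krt14, a basal keratin, did not pass 2-fold, with medians of 1.19 and 49.1 CPM, and 14 bone cells held 88.7% of its bone level. Bone cells were chosen for Krt8 and Krt18, so cells that had lost those keratins would not be among them. The epithelial and the keratin sums had a rho of 0.52 in bone and 0.87 in culture.

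Transcription factors of epithelial and mesenchymal identity differed in both directions. Of 15 counted, 5 were 2-fold higher and 3 lower. Esrp2, an epithelial splicing regulator, reached 20 CPM in 8 of 137 bone cells and 33 of 54 cultured cells. Snai1, a repressor of E-cadherin, was higher with medians of 85.9 and 39.1 CPM. Sox9, a progenitor factor, had medians of 363 and 156 CPM. Gata3, a factor of luminal mammary cells, was also higher at 431 CPM (13.1 to 3124) against 188 CPM (29.0 to 657). Gata3 exceeded every cultured cell in 30 bone cells, and how it relates to junction genes within cells was not tested.

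Matrix genes and proteases were higher or lower gene by gene. Col6a1, a collagen VI chain, reached 20 CPM in 105 of 137 bone cells and 7 of 54 cultured cells. Mgp, an inhibitor of mineral deposition, reached it in 74 and 2 cells, and its bone values ran from 0 to 2204 CPM. Sparc, a matrix protein abundant in bone, had medians of 389.9 and 99.1 CPM, and Col18a1, whose fragment is endostatin, 199 and 42.2 CPM. Of 27 protease and plasminogen genes 7 were 2-fold higher and 6 lower. Mmp9, a gelatinase, had medians of 490.2 and 11.9 CPM, and the other wells held 840.2 CPM of it, 0.790% of which is 6.64 CPM. Mmp3, or stromelysin, had medians of 104 and 9.69 CPM. Serpinb2, an inhibitor of urokinase, was lower through 10 cultured cells with 20 CPM or more, against 0 in bone.

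Some factors that act on bone were higher, several of them in part of the cells. Of 12 counted, 5 were 2-fold higher and none lower. Spp1, or osteopontin, a secreted matrix protein that integrins bind (chromosome 5, 104435118 to 104441050), had a median of 1832 CPM in bone (6.06 to 13859) and 243 CPM in culture (6.49 to 5086). The groups overlapped, with 15 bone cells above every cultured one. Pthlh, the parathyroid hormone-related protein that drives osteoclast formation, reached 20 CPM in 60 of 137 bone cells and 4 of 54 cultured cells, and was at 0 in 40 bone cells. Il11, a cytokine that also promotes bone resorption, reached it in 41 and 5 cells. Csf1, the macrophage growth factor that osteoclasts need, had sums of 125 and 105 CPM, Jag1, a Notch ligand, 67.6 and 43.3 CPM, and neither reached 2-fold.

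Receptors for homing and cell contact included many higher genes. Of 29 counted, 11 were 2-fold higher and none lower, against 6.37% of all genes. Vcam1, an adhesion molecule that binds leukocyte integrins, had medians of 134 CPM in bone (0 to 1085) and 19.3 CPM in culture (0 to 366). Cd82, a tetraspanin, was at 211 and 25.3 CPM with 92 bone cells above every cultured one. Efnb1, an ephrin that signals through cell contact, stood at 83.2 and 10.2 CPM. Cd47, which inhibits uptake by macrophages, was at 419 and 199 CPM, with 523 CPM in the other wells. Fgfr2, a growth factor receptor, was at 185 and 53.3 CPM. Selp, or P-selectin, an adhesion molecule of platelets and endothelium, reached 20 CPM in 82 of 137 bone cells and 1 of 54 cultured cells, while the other wells held 4.48 CPM. Of 20 integrin and laminin chains 4 were 2-fold higher and 1 lower, against 6.37% and 2.68% of all genes. With the shared host level subtracted 3 were higher. Itgb4 and Itga6, which pair as the laminin receptor of hemidesmosomes, had medians of 145 and 144 CPM against 39.0 and 47.7. Itgb2, the leukocyte integrin chain, had medians of 6.31 and 0 CPM, and the other wells held 609 CPM of it.

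Secreted signals differed in both directions. Cxcl5, a neutrophil attractant, reached 20 CPM in 9 of 137 bone cells and 40 of 54 cultured cells, and Cxcl3 in 0 and 10. Cxcl1 of the same family did not follow: its medians were 180.2 CPM in bone and 70.5 CPM in culture, and its sums 321 and 274 CPM. Csf3, or G-CSF, had medians of 56.9 and 111 CPM without passing 2-fold in the sums (-0.99). Il1a, an alarm cytokine (chromosome 2, 129299610 to 129309972), reached 20 CPM in 6 bone cells and 44 cultured cells, and was lower than in every cultured cell in 124 of 137. Ptges, which makes prostaglandin E2, was higher with medians of 46.1 and 1.43 CPM, while Ptgs2, the cyclooxygenase before it, stood at 543 and 531 CPM. Cxcl16, which attracts T cells, had medians of 23.2 and 148 CPM. Cx3cl1, or fractalkine, which attracts monocytes, was higher at 224 against 35.9 CPM. Cxcl10, an interferon-induced chemokine, was higher only through few cells: 14 bone cells held 93.6% of its level and the medians were 3.22 and 1.09 CPM.

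Of 10 counted EGF family genes 4 were 2-fold higher by sums, and 3 of these, the ligands Tgfa, Areg and Hbegf, met the whole call rule. The other, Btc, was lower in the median cell (0.373 against 1.97 CPM) and was not called. Tgfa, a ligand of the EGF receptor, had medians of 156 CPM in bone (0.364 to 540.2) and 34.6 CPM in culture (1.01 to 123), with 82 bone cells above all cultured ones. Areg and Hbegf, further ligands, had medians of 136 and 223 CPM against 38.3 and 107. Egfr itself had sums of 4.49 and 6.37 CPM and Erbb2 33.1 and 45.4 CPM. Of the angiogenic list, Angptl2, an angiopoietin-like secreted protein, stood at 687 against 162 CPM with 103 bone cells above every cultured cell. Flt1, a VEGF receptor, stood at 80.3 against 18.5 CPM, and Vegfa at 9.51 against 0 CPM, reaching 20 CPM in 48 of 137 bone cells and 0 of 54 cultured cells. Fgfbp1, a carrier of fibroblast growth factors, was lower, with 20 CPM or more in 1 bone cell and 18 cultured cells. Wnt7a, a Wnt ligand, reached 20 CPM in 7 bone and 46 cultured cells.

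Type I interferon genes were low in most bone cells and high in a minority. Of 47 counted, 26 were 2-fold lower and none higher, against 2.68% of all genes. Irf7, the factor that amplifies interferon production (chromosome 7, 141262706 to 141266481), had a median of 8.22 CPM in bone (0 to 809.7) and 306 CPM in culture (44.6 to 1473). It was below every cultured cell in 91 of 137 bone cells. Bst2, or tetherin, which holds virus particles at the surface, had medians of 59.6 CPM (1.11 to 1516) and 528 CPM (223 to 2009.6), with 110 bone cells below every cultured cell. Isg15, a ubiquitin-like modifier, had medians of 4.20 and 119 CPM, and Usp18, which removes it and damps the receptor, 1.46 and 212 CPM. The highest bone cells still reached 931 CPM of Isg15 and 2373 CPM of Usp18, and 14 of them held 86.3% of all Usp18. Ifit1, which binds viral RNA, was concentrated further, with 95.6% in 14 cells.

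Over the whole list, a median bone cell had 15 of 48 genes at 20 CPM or more (1 to 47) and a median cultured cell 37.5 (22 to 47). In 93 bone cells the number was below that of any cultured cell. The interferon sum had a rho of 0.04 with total counts, -0.06 with blood cell RNA and 0.21 with the immediate early sum across bone cells. Ifitm2 of the list was not lower, with sums of 177 and 120.3 CPM. Gbp2, an interferon-induced GTPase, had a larger sum in bone (115 against 70.5 CPM) but a lower median (5.95 against 22.0 CPM), and 14 bone cells held 78.9% of its level. For these genes the other bone wells held levels such as 393 CPM of Irf7 and 116 CPM of Bst2.

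**Figure D5:**
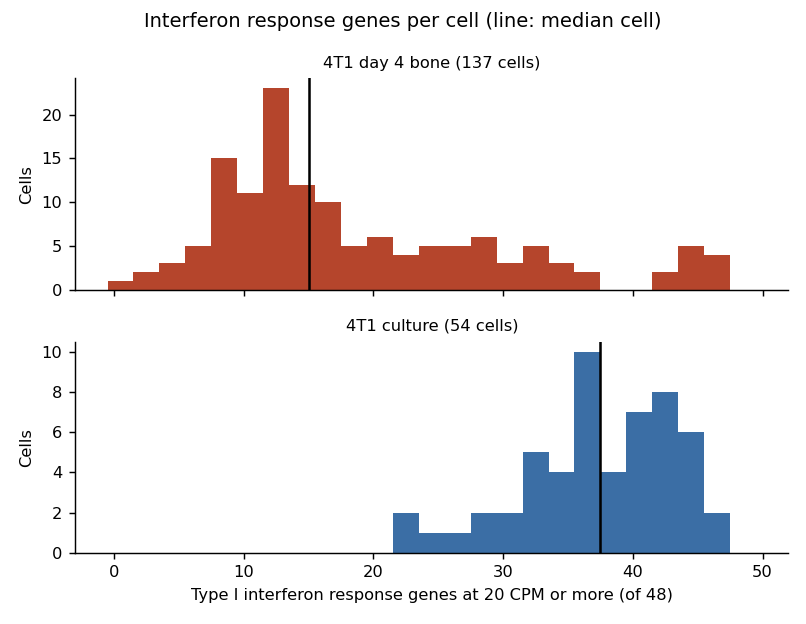
Number of cells (y) by how many of 48 type I interferon response genes each had at 20 CPM or more (x), for day 4 bone above and culture below, with a line at the median cell. The bone cells centre on 15 genes with a tail up to 47, and the cultured cells on 37.5 genes.

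Promoters of 3 of the lower interferon genes are shown because the core of the ISRE, GAAANNGAA, is repeated in them. The 250 bases before the start are given as above, with the core on either strand in capitals, and lie on the minus strand at chr4:156200819-156201068 for Isg15, chr8:71537473-71537722 for Bst2 and chr5:120777660-120777909 for Oas3.
Isg15: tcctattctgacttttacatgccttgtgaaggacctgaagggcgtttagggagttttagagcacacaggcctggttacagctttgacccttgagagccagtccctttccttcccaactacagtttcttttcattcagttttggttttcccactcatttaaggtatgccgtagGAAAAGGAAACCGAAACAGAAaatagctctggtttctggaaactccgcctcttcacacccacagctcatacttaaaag
Bst2: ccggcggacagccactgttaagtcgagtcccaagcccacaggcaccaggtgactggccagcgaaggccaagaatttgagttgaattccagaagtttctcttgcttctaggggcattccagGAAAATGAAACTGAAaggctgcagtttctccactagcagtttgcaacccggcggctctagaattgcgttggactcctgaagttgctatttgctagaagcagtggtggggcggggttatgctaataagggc
Oas3: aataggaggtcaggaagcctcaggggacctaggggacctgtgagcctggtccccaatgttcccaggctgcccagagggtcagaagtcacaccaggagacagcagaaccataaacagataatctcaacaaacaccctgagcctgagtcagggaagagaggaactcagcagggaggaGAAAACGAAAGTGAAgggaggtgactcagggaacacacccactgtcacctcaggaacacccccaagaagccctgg
Overlapping matches numbered 3 for Isg15 and 2 each for Bst2 and Oas3, and the core was in 8.18% of all windows of this length. Of the 23 lower interferon genes only 17 had a sequence, under the 80% needed, so the share over this list is not compared. Oas3, which makes the activator of RNase L, had medians of 1.85 and 99.0 CPM.

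Of 24 MHC class I presentation genes 3 were 2-fold higher and 1 lower, against 6.37% and 2.68% of all genes, with a median ratio of 0.44. With so few members past 2-fold, no difference from that background is read from these counts. With the shared host level subtracted 2 were 2-fold higher. H2 genes are near-identical copies whose reads can be split between them, so single members are uncertain. Irf1, a factor that interferon gamma induces, had medians of 87.3 and 51.0 CPM, with 56.1% of the bone level in 14 cells, and Psmb9, an immunoproteasome subunit, 38.7 and 25.3 CPM, with 256 CPM of Psmb9 in the other wells. MHC class II genes had medians of at most 8.84 CPM in bone cells: Cd74, the invariant chain, stood at 8.84 CPM, H2-Ab1 at 2.94 CPM and H2-Aa at 2.52 CPM, where the other wells held 608, 404 and 379.6 CPM. H2-Ab1 and H2-Aa had no count in culture, and 7 and 6 bone cells reached 20 CPM. Of the checkpoint ligands, Cd274, or PD-L1, was called higher, but 93.0% of its bone level lay in 14 cells and its medians were 0.343 CPM in bone and 0.607 CPM in culture, with 25.1 CPM in the other wells. Lgals9, a galectin, was lower at 111 against 406 CPM.

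Cell cycle genes differed in spread more than in level. Of 44 G2 and M phase genes none passed 2-fold, 40 had a ratio above 0, and the median was 0.36. Their sum ranged from 408 to 26883 CPM (median 6750) in bone and from 1566 to 25021 CPM (median 5292) in culture. In 31 of 137 bone cells fewer of these genes reached 20 CPM than in any cultured cell, down to 3 genes against 22. Mki67, a marker of cycling cells, had a median of 161 CPM in bone (3.63 to 883) and 81.5 CPM in culture (0.978 to 307). Of 50 S phase genes 1 was 2-fold lower, Exo1, a repair nuclease, at medians of 10.9 and 43.8 CPM. The D-type cyclin gene Ccnd1 was higher at 1131 against 529 CPM and its partner kinase Cdk6 at 221 against 113 CPM, whereas Ccnd2 had medians of 68.3 and 151 CPM without passing 2-fold. Of the nucleolar genes, Nolc1 and Nop2 had ratios of -0.95 and -0.73.

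Metabolic lists held single genes far apart between the groups. Of 37 glycolysis and hypoxia genes 3 were 2-fold higher and 2 lower, against 6.37% and 2.68% of all genes. With counts this small, no difference from that background is read. Hk2, a hexokinase, had medians of 52.6 and 19.3 CPM, and Pdk1, a kinase that inhibits pyruvate dehydrogenase, 0.347 and 33.7 CPM. Of 31 cholesterol and fatty acid genes 5 were 2-fold lower and none higher, against 2.68% of all genes. Fads2, a fatty acid desaturase, reached 20 CPM in 6 of 137 bone cells and 32 of 54 cultured cells, and Scd2 had medians of 53.8 and 148 CPM. Tfrc, the transferrin receptor that imports iron, was lower with a median of 63.1 CPM (0.601 to 266) against 284 CPM (81.8 to 667), and 89 bone cells lay below every cultured cell. Hmox1, a haem oxygenase, reached 20 CPM in 42 of 137 bone cells (30.7%) and 36 of 54 cultured cells (66.7%).

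Of 30 NRF2 targets 3 were 2-fold higher and 2 lower, against 6.37% and 2.68% of all genes, with a median of 0.02. Ugdh, which makes the sugar of glucuronides and matrix polysaccharides, was higher at 292 against 116 CPM. Sod1, a superoxide dismutase, was higher at 1090.3 against 447 CPM. Of 37 amino acid and stress response genes 5 were 2-fold higher and 2 lower. Nupr1, a stress-induced chromatin protein, stood at 189.7 CPM against 42.6. Asns and Psat1, which make asparagine and serine, ran the other way with sums of 156 and 331 CPM in bone and 282 and 551 CPM in culture. Gpt2, a mitochondrial transaminase, was lower with medians of 0.243 and 24.7 CPM. Nupr1 and Ppp1r15a were thus higher while these 3 enzymes had lower sums.

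Some of the lowest genes in bone belonged to no list. Mal, a membrane protein of apical sorting, was at 0 in the median bone cell and at 36.2 CPM in the median cultured cell, and 123 bone cells lay below every cultured one. Adh7, an alcohol dehydrogenase of epithelia, had medians of 0 and 36.2 CPM, Il24, a cytokine of the interleukin-10 family, 0 and 63.8 CPM, and Erfe, a secreted regulator of iron, 0 and 26.0 CPM. For Erfe 100 and for Il24 105 of 137 bone cells lay below every cultured cell. These genes were near absent from most bone cells, and the other wells held at most 1.02 CPM of any of them.

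Lists of widely expressed housekeeping genes mostly moved little on this scale. The scaling aligns the bulk of genes, so these ratios cannot show RNA content per cell. None of 73 ribosomal protein genes, 49 nuclear respiratory chain genes or 20 ER chaperones passed 2-fold, with medians of -0.04, 0.09 and 0.22. The mitochondrially encoded genes had a median of 0.65, with mt-Nd4 and mt-Nd6 2-fold higher of 10. Of 16 heat shock chaperones 2 were higher, against 6.37% of all genes. Dnajb1 was among them at 238 against 93.7 CPM, whereas Hsph1 had lower sums of 138 and 264 CPM. Tcf7l2, a nuclear effector of Wnt signalling, was higher at 76.1 against 12.4 CPM, the only one of 22 Wnt and Notch genes. Neat1, a nuclear long non-coding RNA, had medians of 496 and 122 CPM with 68 bone cells above every cultured one, and Mirt1, a lower one, 0.280 and 82.9 CPM with 121 bone cells below. Of 32 actin and tubulin genes 3 were higher, against 6.37% of all genes, and 2 with the shared host level subtracted. Tuba1a, a tubulin, was among them with medians of 306 and 126 CPM. Tmsb4x, which binds actin monomers, had medians of 512 and 229 CPM, and the other wells held 4298 CPM of it.

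The same rule was applied to 4T1.2, a clone derived from 4T1, at day 4 in bone (45 cells) against its own culture (53 cells), and to 4T1 in a mammary fat pad at day 22 (85 cells). The fat pad ratio uses the cultured 4T1 cells of the main comparison, so these ratios share them and are only set side by side. For Fos the log2 ratios were 8.28 in 4T1 bone, 7.45 in 4T1.2 bone and 8.26 in the fat pad, and for Dusp1 4.98, 2.74 and 4.71. Id1 had 2.29, 1.47 and -0.65, and Id2 2.68, 2.24 and -0.45, so both were above culture in bone and below it in the fat pad. Epithelial junction genes had medians of -0.91, -0.27 and 0.56, with Cdh1 at -2.22, -0.22 and -0.10. Cdh1 was near absent from 4T1.2 already in culture, with sums of 1.56 CPM there and 0.634 CPM in bone. Its ratio in 4T1.2 is therefore held near 0 by the 5 CPM added, and cannot show whether Cdh1 was kept. Interferon genes had medians of -1.05, -1.82 and -0.77, and G2 and M phase genes 0.36, 0.20 and -1.66.

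Several genes that led the 4T1 comparison had other ratios in 4T1.2. Selp stood at 4.61 in 4T1 and -1.60 in 4T1.2, Spp1 at 2.01 and -0.81, Angptl2 at 2.00 and -0.38, and Tgfa at 1.84 and -0.48. Il1a stood at -4.21 and -0.26, Ctgf at -2.33 and 0.66, and Myc at -1.10 and 0.27. Whether these ratios differ between the lines was not tested, since each group is 1 sample. Within 4T1 bone, Spp1 had summed levels of 2433 CPM at day 4, 8448 at day 10 and 24378 at day 16, Pthlh 52.3, 317 and 262, and Ccnb1, the mitotic cyclin, 363, 99.3 and 26.2.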

How the data were processed

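Single cells were sequenced after a modified Smart-seq2 protocol with oligo-dT priming and paired reads of 150 bases, per the labels. Wells with an mCherry Ct above 30 were discarded, per the labels. Raw read counts per gene symbol and cell, without molecular barcodes, are what the authors deposited. The submitters' processing notes name build mm10, STAR 2.6.0c and featureCounts 1.6.2 among other tools, and the annotation and strand setting are not given in the sources used here. Of 40840 entries, 78 ERCC, 2 reporter and 4 repeated date-like symbols stayed out of totals, and the last held 0.0149% of counts.

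Read counts were added up over the tumour cells of each group, and CPM of groups and cells were scaled with TMM (edgeR 4.0.16, R 4.3.3). CPM in the rule that chose the cells, and of the reporters, were not scaled. Levels in the other bone wells were divided by the factor of the bone tumour cells. Python 3.11.15, numpy 2.4.6, pandas 2.3.3, scipy 1.17.1 and matplotlib 3.10.9 did the rest. Log2 ratios add 5 CPM. Thinning to 500000 counts left out 2 bone cells and 1 cultured cell, and total counts per cell ran from 294795 to 6956920. Doublets were not called, and wells with blood cell RNA were left out as an alternative. Positions are from GENCODE M21.

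The members, lists and limits were chosen with earlier results of these data known. Named genes are the 15 furthest in each direction by ratio and by the gap between the cells' quartiles, and of each list up to 4 members furthest along its median and 2 against it, or all of a list of at most 12. The number of cells exceeding every cultured cell depends on there being 54 of those. The rule for calling genes was tested on simulated data with planted changes larger than 2-fold. That simulation held no host RNA and used neither TMM nor thinning. Alternatives were other scalings (including DESeq2 1.42.0 size factors), pseudocounts, minima, cell filters and cell weights, and 2 added after seeing the data that subtract the shared host level.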

Additional observations from a re-analysis of the deposited data

Results flagged for a closer look

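The first results stand out because 4T1 and 4T1.2 moved in opposite directions between culture and day 4 bone. MHC class I presentation genes had a median log2 ratio of 0.44 in 4T1 and -0.47 in 4T1.2. Il11 had 1.74 and -1.27, and Selp 4.61 and -1.60. The difference was not tested.

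The next appear in entries outside the gene table. The reporter entry luciGFP had a median of 64.0 CPM in day 4 tumour cells and 39.4 CPM in culture, and 11 and 2 cells had less than 1 CPM. ERCC spike-in RNA had a median share of 0.172% at day 4 and 0.0976% in culture. The sources used here do not say how much spike-in each well received.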

How the results depend on the processing

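The counts of genes 2-fold apart moved by more than 1.5 times under 3 alternatives. A pseudocount of 20 CPM left 253 higher and 89 lower genes, a minimum of 50 CPM with detection in 50% of cells left 293 and 105, and median per-cell CPM gave 579 lower genes. In the other 29 values the counts stayed within 1.5 times, between 351 and 619 higher and between 178 and 246 lower. Without TMM the median of genes moved from 0.05 to -0.05. Of the named genes called higher or lower, 3 changed sign: Cd274 was at -0.070 and Cp at -0.60 with median per-cell CPM, and Lcn2, at 4781 CPM in the other wells, was at -0.39 with the shared host level subtracted and wells with 100 CPM or more of blood cell genes left out. Some named genes that were not called also took both signs, among them Btc, Gbp2, Dusp4, Cxcl11 and Bub1. Of the list medians under alternatives, 684 stayed within the spread and 13 moved beyond it. Type I interferon ranged from -2.41 to -0.90 and immediate early genes from 2.19 to 3.27. The NF-kB, NRF2, Wnt and Notch, actin, checkpoint, interleukin-1, iron, long non-coding, lysosome, monocyte chemokine and respiratory chain lists took both signs. The cause was not tested.

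No paired analysis was possible because replicate numbers only name cells. Each group is 1 sample, and leaving out an animal was not possible. Read counts without molecular barcodes make counting intervals too narrow, and values under 20 CPM in single cells rest on few molecules.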
